A study of Mus musculus with 12 samples.

Results

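Genes made by eosinophils and mast cells were followed in abdominal fat pads of mice. The members are 10 genes, chosen by symbol: Rnase2a, Epx, Prg2, Ccr3 and Il5ra for eosinophils, and Cpa3, Mcpt4, Cma1, Tpsb2 and Ms4a2 for mast cells. They are measured by 12 of the 45101 probe sets on the array and stand for 10 of the 18194 genes that could be named. Tpsb2 and Ms4a2 have more than 1 probe set, and a gene's value is the mean of its probe sets.

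The mice were females on the C57BL/6 background, either wild type or null for p47phox, the cytosolic NADPH oxidase subunit encoded by Ncf1. Each genotype received casein or a high fat diet from postnatal day 28 for 13 weeks, which gives 4 groups of 3 pools: wild type casein, null casein, wild type high fat diet and null high fat diet. The labels call the animals P47KO and name no cell type in which the gene is missing. They do not give the number of mice in a pool, and nothing says that pools are separate litters, so a p-value here measures the spread between pools, which may be technical.

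Eosinophils are granulocytes of type 2 immunity. In adipose tissue they are drawn by eotaxins and interleukin 5 and are known as a source of interleukin 4, which supports alternatively activated macrophages. Mast cells reside in connective tissue, depend on the receptor Kit, and store histamine, heparin and proteases in granules that are released when the IgE receptor is crosslinked.

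The deposited log values were taken as log2, and each probe set is centred on its median over the 12 pools. A value of 0 is therefore the middle of the pools and not absence, and neither the level of a gene nor its distance from background can be read. For the same reason the fat pad label cannot be checked against the level of adipocyte markers. In pieces of tissue, fewer cells of a type and less RNA per cell cannot be told apart.

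The 250 bases before the start of the 4 genes that varied most are shown because Rnase2a parted from the mast cell proteases in the data. They come from RefSeq on GRCm38.p6, whose table held 8 of the 10 members. Each is written 5′ to 3′ on the gene's minus strand, at chr14:51256113-51256362 for Rnase2a, chr3:20242182-20242431 for Cpa3, chr14:56062311-56062560 for Mcpt4 and chr14:55944676-55944925 for Cma1. Capitals mark matches, on either strand, to the letters AGATAA with A or T in first place and A or G in last place, the core bound by GATA factors, which serve both lineages.
Rnase2a: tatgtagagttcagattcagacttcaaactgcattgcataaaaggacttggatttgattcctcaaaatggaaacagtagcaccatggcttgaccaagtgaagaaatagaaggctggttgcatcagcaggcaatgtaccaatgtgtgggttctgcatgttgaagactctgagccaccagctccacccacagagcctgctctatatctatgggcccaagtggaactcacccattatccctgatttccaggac
Cpa3: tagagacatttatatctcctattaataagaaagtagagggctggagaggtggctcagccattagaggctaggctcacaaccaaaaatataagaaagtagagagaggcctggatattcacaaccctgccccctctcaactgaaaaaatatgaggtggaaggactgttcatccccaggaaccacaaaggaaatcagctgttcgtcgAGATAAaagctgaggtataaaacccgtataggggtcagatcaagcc
Mcpt4: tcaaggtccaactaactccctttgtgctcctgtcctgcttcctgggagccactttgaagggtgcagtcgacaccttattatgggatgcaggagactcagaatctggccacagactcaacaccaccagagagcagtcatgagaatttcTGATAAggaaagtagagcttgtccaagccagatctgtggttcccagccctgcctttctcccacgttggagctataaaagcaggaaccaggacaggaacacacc
Cma1: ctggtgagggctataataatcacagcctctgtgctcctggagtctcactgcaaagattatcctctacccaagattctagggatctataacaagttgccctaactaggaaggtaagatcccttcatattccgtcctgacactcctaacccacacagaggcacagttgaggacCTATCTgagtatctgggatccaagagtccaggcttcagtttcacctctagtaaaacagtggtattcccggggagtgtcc

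A match stood 46 bases before the start in Cpa3, 103 in Mcpt4 and, on the other strand, 79 in Cma1, and none was found in the Rnase2a window. Of the 8 members with a window 6 held a match, against 26.5% of 32851 promoters of that length. The window of Epx held none either, and those of Ccr3, Il5ra and Ms4a2 held 2, 1 and 3. No member window held the STAT letters TTCNNNGAA, found in 7.02% of promoters, or the MITF letters CATGTG, found in 12.3%. These are matches of letters only.

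Ncf1, the targeted gene, was lower in the null pools. It lay between 0.07 and 0.85 in the 6 wild type pools and between -0.29 and -0.19 in the 6 null pools. The difference on the high fat diet was -0.76 ± 0.16 (SE, limma adjusted p = 0.0312). On casein it was -0.65 (limma adjusted p = 0.521).

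On the high fat diet, 1 of the 10 members passed the test between genotypes, and it was Rnase2a, an eosinophil-associated ribonuclease that was 6.56-fold lower in null than in wild type fat. The granule genes Epx and Prg2 and the receptor genes Ccr3 and Il5ra lay close to 0 difference. The mast cell proteases Mcpt4, Cpa3 and Cma1 had lower means in null pools but did not pass, and Tpsb2 and Ms4a2 hardly varied. Over all genes 5.92% were called in this comparison, 2.71% as lower in null fat, so 1 of 10 members is near the background. An unadjusted p under 0.05 was found for 2 members and for 24.9% of all genes. The median difference was -0.09 over the members and -0.03 over all genes.

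Rnase2a encodes a secreted ribonuclease of the eosinophil-associated family, and the family is also known from alternatively activated macrophages. Its values in wild type casein pools were 0.10, 1.28 and 1.11, and in null casein pools -0.10, -0.59 and -0.58. High fat feeding gave 1.35, 1.71 and 2.79 in wild type fat, against -0.59, -0.71 and -0.98 in null fat. Every wild type pool lay above every null pool on both diets, with the narrowest gap between the first pools of the casein groups.

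The group means of Rnase2a were 0.83 ± 0.64 (SD, n = 3) in wild type casein, -0.42 ± 0.28 in null casein, 1.95 ± 0.75 in wild type high fat diet and -0.76 ± 0.20 in null high fat diet. Wild type high fat diet was highest, then wild type casein, and the null groups met at -0.59; the limma tests between neighbours on diet did not pass. On the high fat diet the difference was -2.71 ± 0.38 (SE; 95% interval -3.55 to -1.88; limma adjusted p = 0.0137). The call was lost when null high fat diet pool 2 or pool 3 was left out, with values of -2.74 (limma adjusted p = 0.0657) and -2.60 (limma adjusted p = 0.0699), and without either pool no gene was called in this comparison.

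Averaged over both diets, Rnase2a was lower in null pools by a log2 difference of -1.98 ± 0.27 (SE, limma adjusted p = 0.00929), with 6 null pools below 6 wild type pools. It was again the 1 member called, where 7.52% of all genes were called, 3.42% as lower; 2 members and 25.6% of genes had an unadjusted p under 0.05. Among all genes 1.80% had every null pool below every wild type pool over both diets, and Rnase2a was the 1 such member. The averaged call held with each pool left out in turn.

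**Figure D1:**
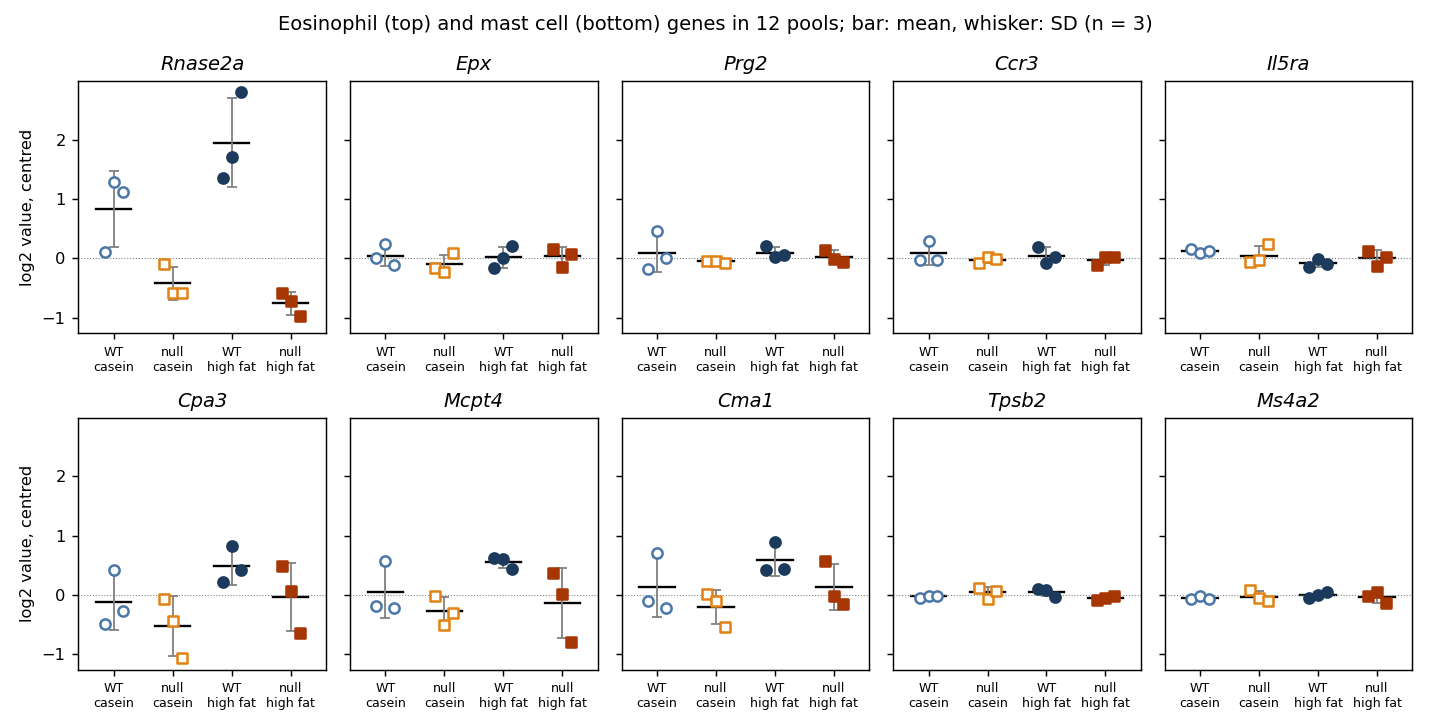
Centred log2 values of the 10 members in the 12 pools, with 5 eosinophil genes above and 5 mast cell genes below; points are pools, bars are means and whiskers are SD (n = 3). Rnase2a separates the genotypes, from 0.10 to 2.79 in wild type and from -0.98 to -0.10 in null, while Cpa3, Mcpt4 and Cma1 overlap more and Tpsb2 and Ms4a2 stay near 0.

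The other eosinophil members did not follow Rnase2a. Epx, the granule peroxidase, was at -0.16, 0.00 and 0.20 in wild type fat under high fat feeding, against 0.16, -0.14 and 0.07 in null fat. The groups overlapped, with a difference of 0.02 (95% interval -0.27 to 0.31; limma adjusted p = 0.957). Its casein pools were as close, from -0.11 to 0.23 in wild type and from -0.23 to 0.08 in null.

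Prg2, the granule major basic protein, was at 0.20, 0.02 and 0.05 in wild type fat under high fat feeding, against 0.14, -0.01 and -0.07 in null fat. These also overlapped (difference -0.07, 95% interval -0.37 to 0.24). Its highest value, 0.45, was in wild type casein pool 2, the pool that was also the highest of its group in Cpa3, Mcpt4 and Cma1.

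Ccr3, the eotaxin receptor, lay between -0.12 and 0.30 in all pools and differed by -0.08 between genotypes on the high fat diet (95% interval -0.30 to 0.15). Il5ra, the interleukin 5 receptor alpha chain, lay between -0.14 and 0.23 and differed by 0.09 (95% interval -0.11 to 0.30). The lowest bound among these 4 genes was -0.37, and the upper bound of Rnase2a was -1.88. Over the 12 pools Epx, Ccr3 and Il5ra spanned 0.46, 0.42 and 0.38, under the median span of 0.50 over all genes, and Prg2 0.64. Distance from background cannot be read, so a fall in a dim gene could be missed. A p above the threshold does not show that the genotypes were equal.

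The mast cell proteases had wider spreads. Cpa3, a carboxypeptidase of mast cell granules, was at 0.21, 0.82 and 0.42 in wild type fat under high fat feeding, against 0.48, 0.07 and -0.64 in null fat, so the groups overlapped. The difference was -0.51 ± 0.34 (SE; 95% interval -1.27 to 0.24; limma adjusted p = 0.392). On casein it read -0.48, 0.42 and -0.27 in wild type fat, against -0.07, -0.45 and -1.07 in null fat, the last being the lowest of all.

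Mcpt4, a chymase of connective tissue mast cells, was at 0.62, 0.61 and 0.44 in wild type fat under high fat feeding, against 0.37, 0.02 and -0.79 in null fat. All 3 null pools lay below all 3 wild type pools, which held for 2 members here (Rnase2a the other) and for 17.3% of all genes in that direction. The difference was -0.69 ± 0.29 (SE), with an unadjusted p of 0.0352 and a limma adjusted p of 0.165. Without null high fat diet pool 3 it was -0.37.

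Cma1, another mast cell chymase, was at 0.42, 0.89 and 0.44 in wild type fat under high fat feeding, against 0.57, -0.01 and -0.16 in null fat. The first null pool lay inside the wild type range, and the difference was -0.45 ± 0.27 (SE, limma adjusted p = 0.35). Tpsb2, a tryptase, spanned 0.20 over the 12 pools and Ms4a2, the beta chain of the IgE receptor, 0.22, against a median span of 0.50 over all genes. Their differences were -0.10 and -0.04, and the probe sets of Ms4a2 differed in sign (0.10 and -0.18).

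**Figure D2:**
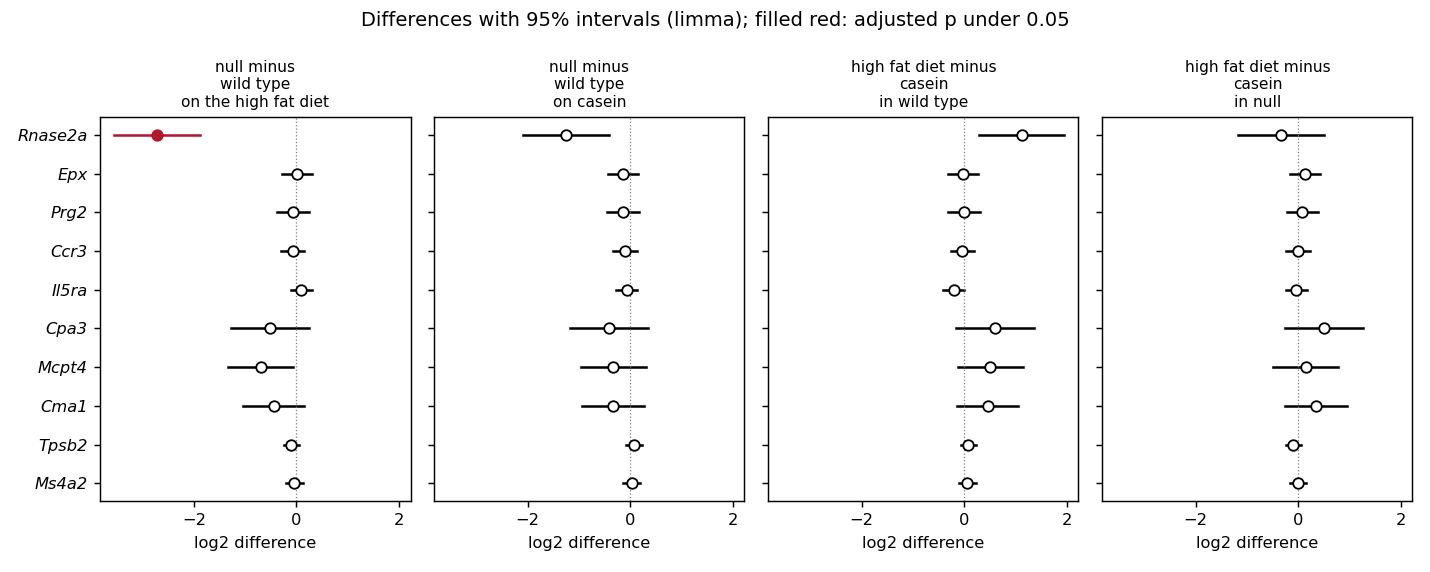
Log2 differences of the 10 members in 4 comparisons, with 95% intervals from limma; the filled red point is the 1 difference with an adjusted p under 0.05. Rnase2a stands at -2.71 in the genotype comparison on the high fat diet, and the other 9 members have open points in every panel.

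On casein, no member passed between genotypes, and neither did any of the 18194 genes in limma (0% called; 8.12% had an unadjusted p under 0.05, against 1 of the 10 members). That member was Rnase2a, at -1.26 ± 0.38 (SE, unadjusted p = 0.0070, limma adjusted p = 0.542), with its groups apart as in 6.57% of genes. Cpa3, Mcpt4 and Cma1 differed by -0.42, -0.33 and -0.34.

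Diet gave no called member in either genotype, and no gene was called at all by limma (0% in each; unadjusted p under 0.05 in 7.61% of genes in wild type and 4% in null, with 1 and 0 members). Rnase2a was higher on the high fat diet in wild type by 1.12 ± 0.38 (SE, limma adjusted p = 0.592), its 3 high fat diet pools all above its casein pools, as in 7.07% of genes. In null pools the diet difference was -0.34 ± 0.38 (SE). Il5ra had its wild type high fat diet pools below the casein pools (difference -0.20, limma adjusted p = 0.654), as in 4.86% of genes.

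The interaction, which tests whether the diet difference depended on genotype, called no gene in limma (0%; unadjusted p under 0.05 in 6.12% of genes and 1 member). For Rnase2a it was -1.46 ± 0.53 (SE, unadjusted p = 0.0201, limma adjusted p = 0.789). Averaged over genotypes, diet called 0 members and 0.0055% of genes by limma, with an unadjusted p under 0.05 in 5.23% of genes and 1 member, Cpa3 (0.55 ± 0.24 SE, limma adjusted p = 0.942).

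Cpa3, Mcpt4 and Cma1 were high and low in the same pools. Over the 12 pools Cpa3 and Cma1 had a Pearson r of 0.947 and a Spearman rho of 0.944 (permutation, adjusted over 45 member pairs, p = 0.00135 and 0.0018). Cpa3 and Mcpt4 had 0.866 and 0.860 (permutation adjusted p = 0.00675 and 0.0125), and Mcpt4 and Cma1 0.856 and 0.839 (permutation adjusted p = 0.00675 and 0.0128). Without the 2 pools farthest from the median the r values were 0.900, 0.926 and 0.923, and after removing group means 0.905, 0.807 and 0.768.

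These were the 3 pairs of 45 below 0.05 by Pearson; by Spearman 6 were, the other 3 joining Prg2 to the same proteases. The remaining 42 pairs had r from -0.59 to 0.72, with a median of 0.24.

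**Figure D3:**
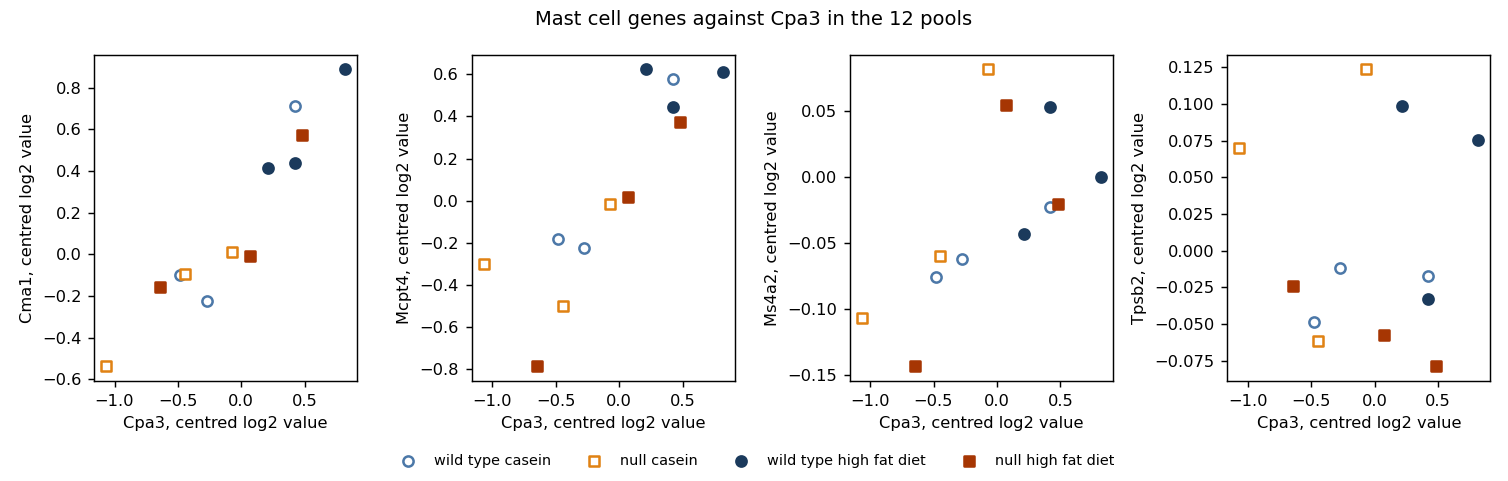
Centred log2 values of Cma1, Mcpt4, Ms4a2 and Tpsb2 (vertical) against Cpa3 (horizontal), 1 point a pool, with shapes and fills for the 4 groups. Cma1 and Mcpt4 lie along a line with Cpa3 within and across groups. Ms4a2 (Pearson r 0.64) follows Cpa3 less closely, and Tpsb2 (0.02) does not follow it.

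Among 9 measured of 14 other eosinophil genes, 2 fell in null fat on the high fat diet and 7 were not called (median -0.06). An unadjusted p under 0.05 was found for 5 of the 9, 3 lower and 2 higher in null fat, against 24.9% of all genes. Ltc4s, which makes leukotriene C4 in eosinophils, mast cells and macrophages, was at 0.74, 0.74 and 1.16 in wild type fat, against -0.24, -0.13 and -0.54 in null fat (-1.18 ± 0.17 SE, limma adjusted p = 0.0137). Csf2rb2, a receptor beta chain for interleukin 3, fell by 0.87 on the log2 scale (limma adjusted p = 0.0422). The surface marker Siglecf differed by 0.02 (limma adjusted p = 0.934) and Rnase2b, a relative of Rnase2a, by -0.01 (limma adjusted p = 0.947). The higher pair were Alox15, a lipoxygenase gene, with every null pool above every wild type pool (1.16 ± 0.31 SE, limma adjusted p = 0.0546), and Gata1, a GATA factor gene of the eosinophil and mast cell lineages (0.35 ± 0.14 SE, limma adjusted p = 0.149). Csf2rb, the shared beta chain, was the third lower one (-0.90 ± 0.25 SE, limma adjusted p = 0.0572). Ear3, chosen after its values were seen, fell by 0.62 on the log2 scale (limma adjusted p = 0.038).

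Of 15 type 2 and recruiting signals 13 had a lower mean in null fat on the high fat diet. An unadjusted p under 0.05 was found for 5, all lower, and for 2303 of all 18194 genes in that direction. In 7 every null pool lay below every wild type pool, as in 17.3% of all genes. The 1 called, as lower, was Ccl11, which encodes eotaxin. On the high fat diet it read 0.51, 0.97 and 1.501 in wild type fat, against -0.12, -0.50 and -0.93 in null fat (-1.51 ± 0.35 SE, limma adjusted p = 0.0375). The null pools all lay below the wild type pools. In casein pools Ccl11 overlapped between genotypes, with wild type from -0.55 to 0.27 and null from -0.88 to 0.23.

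Among 14 measured of 16 other mast cell genes, 2 rose in null high fat diet pools and 12 were not called (median 0.03). Of the 14, 8 had a higher and 6 a lower mean in null pools. An unadjusted p under 0.05 was found for 4, all higher, and for 2230 of all 18194 genes in that direction. Every null pool lay above every wild type pool in 4, as in 2714 of all 18194 genes. Hdc, which makes histamine, was at -1.27, -1.21 and -1.02 in wild type, against 0.69, 1.33 and 2.22 in null pools (2.58 ± 0.66 SE, limma adjusted p = 0.0471). Slc18a2, the vesicular monoamine transporter, was at -2.97, -2.79 and -2.90 in wild type, against 0.04, 1.56 and 0.94 in null pools (3.74 ± 0.79 SE, limma adjusted p = 0.0303). In wild type casein pool 1 they were at 0.88 and 1.004, near the null pools. So was Inha, an ovarian gene, at 0.73 against -5.78 to -5.04 in the other 5 wild type pools. The part of ovarian tissue in the values of Hdc and Slc18a2 was not tested. Kit differed by 0.43 (limma adjusted p = 0.172) and Fcer1a by -0.09.

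Of 6 measured basophil genes none passed limma between genotypes on the high fat diet, and none had an unadjusted p under 0.05. The 6 include Cpa3, Ms4a2 and Fcer1a, given above. Of 11 genes of alternatively activated macrophages 1 fell on the high fat diet, the lectin gene Mgl2 (-0.94 ± 0.19 SE, limma adjusted p = 0.0294), with a list median of -0.72. In this list 6 of 11 had an unadjusted p under 0.05, all lower, as had 2303 of all 18194 genes in that direction. In 6 of the 11 every null pool lay below every wild type pool, against 17.3% of all genes. Retnla passed only in the comparison averaged over diets (-0.98, limma adjusted p = 0.0287). None of 14 pan-macrophage markers passed limma (median -0.27). Among them 4 had an unadjusted p under 0.05, all lower, against 2303 of all 18194 genes in that direction. No call by limma was made among 10 neutrophil genes, 11 lymphocyte markers and 11 fibroblast and progenitor markers. In these lists 4, 1 and 1 had an unadjusted p under 0.05, against 24.9% of all genes.

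Each of these calls on the high fat diet, that of Ncf1 included, was lost without null high fat diet pool 2 or 3. Each was also lost with the tissue medians as covariates, a fit in which no gene was called on that diet. Ncf1, Ccl11, Csf2rb2, Mgl2, Ear3, Hdc and Slc18a2 also lost theirs without each of the 3 wild type pools on that diet, and Ltc4s without the third of them. Ncf1, Ccl11, Csf2rb2, Hdc and Slc18a2 lost theirs without null casein pool 2, Csf2rb2 and Hdc without wild type casein pool 3, and Csf2rb2 without null high fat diet pool 1. Where a call was lost with a pool left out, the limma adjusted p lay between 0.0501 (Slc18a2) and 0.176 (Hdc). The averaged call of Retnla was lost without pool 2 or 3 of null casein, null high fat diet or wild type high fat diet, and without wild type casein pool 2, with limma adjusted p from 0.0543 to 0.0777.

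Some markers of ovary, oviduct and uterus, mesothelium and adipocytes differed between genotypes on the high fat diet. A list of 20 ovary, oviduct and uterus markers had medians of -0.42, -0.53 and -0.61 in wild type fat on the high fat diet. In null fat the medians were 0.12, 0.43 and 0.75. Of the 20, 6 were called as higher and 14 were not called, where 5.92% of all genes were called. An unadjusted p under 0.05 was found for 17 of the 20, all higher, and for 2230 of all 18194 genes in that direction. In 17 every null pool lay above every wild type pool, as in 2714 of all genes. On casein the medians were 0.17, -0.58 and -0.47 in wild type fat, against -0.06, 0.14 and 0.31 in null fat. There no marker was called by limma (3 of 20 had an unadjusted p under 0.05, against 8.12% of all genes). Wild type casein pool 1, the highest wild type pool in these markers, was the lowest wild type pool in Rnase2a.

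Of 10 mesothelial markers all had a higher mean in null fat on the high fat diet. Of these 5 had an unadjusted p under 0.05, all higher, as had 2230 of all 18194 genes in that direction. The 1 called was Wt1 (2.61 ± 0.56 SE, limma adjusted p = 0.0316), where 5.92% of all genes were called. The list medians were 0.24, -0.47 and -1.35 in wild type fat, against 0.35, 0.42 and 0.54 in null fat, so the null pools lay above. The call of Wt1 was lost without null casein pool 2 and without pool 2 or 3 of either genotype on the high fat diet (limma adjusted p from 0.0510 to 0.118), and with the tissue covariates (limma adjusted p = 0.986).

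The median of 14 adipocyte markers was 0.19, 0.24 and 0.26 in wild type fat on the high fat diet. In null fat it was -0.04, -0.25 and -0.54. Of the 14, 5 fell, where 2.71% of all genes were called as lower. All 14 had a lower mean in null fat. An unadjusted p under 0.05 was found for 9, and for 2303 of all 18194 genes in that direction. With the medians of the ovary, muscle and liver lists as covariates, Rnase2a differed by -1.43 on the high fat diet (limma adjusted p = 0.764) and by -1.04 over both diets (limma adjusted p = 0.612). Under the same covariates Cpa3, Mcpt4 and Cma1 turned to 0.96, 0.54 and 0.70, with no call. On the high fat diet every null pool lay above every wild type pool in the ovary median. This fit therefore cannot tell genotype and other tissue apart, and it called no gene on that diet. The part of other tissue in these differences was not tested.

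Skeletal muscle and liver markers varied between pools of a group, and none of 18 and 13 passed limma or had an unadjusted p under 0.05 between genotypes on the high fat diet. The muscle median reached 4.58 in wild type high fat diet pool 2 and 3.77 in null high fat diet pool 1, and the liver median 4.64 in wild type casein pool 3. Without these 3 pools Rnase2a differed by -2.92 on the high fat diet (limma adjusted p = 0.0432).

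**Figure D4:**
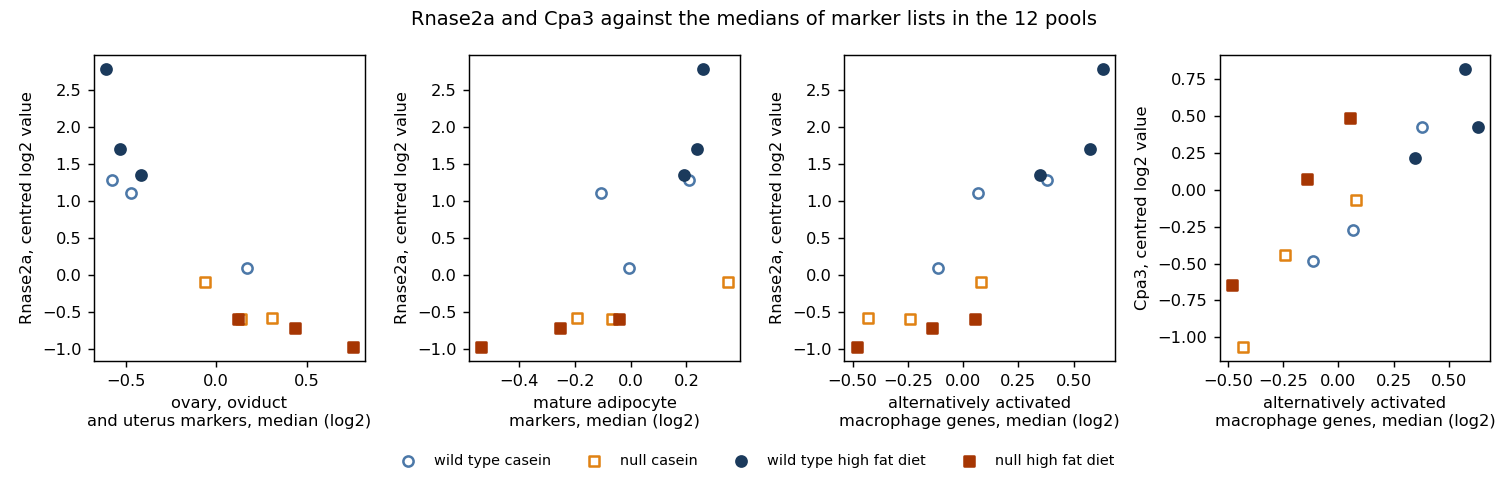
Rnase2a and Cpa3 in the 12 pools (vertical, centred log2 values) against the medians of marker lists (horizontal, log2), 1 point a pool. Rnase2a is highest, at 2.79, in the pool with the lowest ovary, oviduct and uterus median, -0.61.

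The genes most like Rnase2a over the 12 pools, by Pearson r among 18193 genes, were Lep (0.974), Nln (0.974), Gng2 (0.973), Atp2a3 (0.968) and Fez2 (0.968). Since the genotypes form separate clusters these values describe the match only, and after removing group means they were between 0.84 and 0.88. Lep, which encodes leptin, was at 0.71, 0.51 and 1.71 in wild type fat on the high fat diet, against -0.49, -0.71 and -0.79 in null fat. Ltc4s ranked 30 and Ccl11 393, while Epx ranked 7051.

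The mean of Epx, Prg2, Ccr3 and Il5ra was most like Defa39 (r 0.918), Prrt3, Hkdc1, Lhx1 and 1810007D17Rik. The averaged genes spanned 0.38 to 0.64 and these matches 0.30 to 0.76, beside a median span of 0.50 over all genes. They are the highest among 18190 genes searched, so the values describe the match only. The mean of the 5 mast cell members was not scaled by gene. Tpsb2 and Ms4a2, with spans of 0.20 and 0.22, weighed little in it beside Cpa3, Mcpt4 and Cma1 (1.89, 1.41 and 1.43). This mean was most like Tmeff2 (0.949), Lrrn4cl (0.945), Scara5 (0.942), Abcc9 (0.939) and Pcsk6 (0.938). Mrc1, the mannose receptor of macrophages, ranked 16 (0.920).

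**Figure D5:**
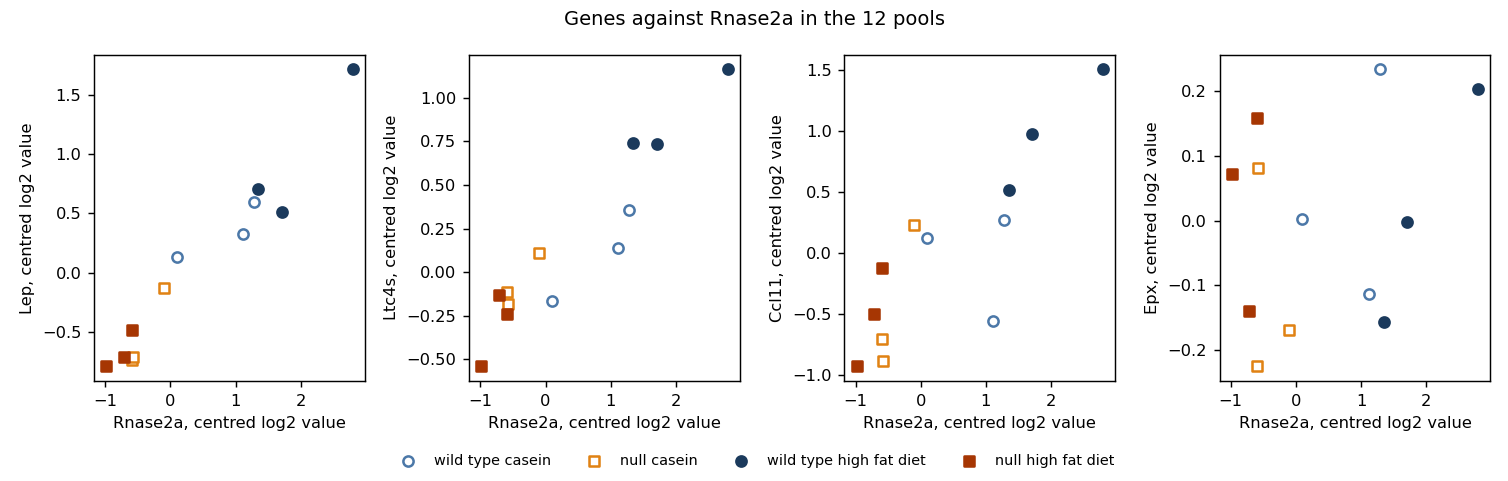
Lep, Ltc4s, Ccl11 and Epx (vertical) against Rnase2a (horizontal) in the 12 pools, all centred log2 values. Lep and Ltc4s line up with Rnase2a, and Epx, which ranked 7051 in likeness, is scattered.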

How the data were processed

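Total RNA of 12 pools of mouse abdominal fat pads was measured on Affymetrix arrays, from 8 µg a pool per the labels. Their organism field gives mouse, while their extraction text speaks of rats. The deposited log2 values were made with GCOS and RMA, per the submitters' processing notes, with no version or setting given; the base of the logarithm was taken as 2. All 45101 probe sets have a median of 0 over the pools (tolerance 1e-06), so the authors had centred them, and signal over background is lost. The number of arrays limits the precision. The platform table gives 1 gene for 34958 probe sets, several for 932 and none for 9211; 34754 were named through the RefSeq table of GRCm38.p6, leaving 18194 genes.

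The test was limma 3.58.1 under R 4.3.3, with 4 group means in a single fit to 12 pools (8 residual and 2.50 prior degrees of freedom), with 7 comparisons, two-sided p-values adjusted over all genes by Benjamini and Hochberg, and a threshold of 0.05. Correlations of member pairs had 100000 permutations. The code was tested on simulated data. The members, lists and alternatives were chosen with earlier results of these data known. Named are the members, Ncf1, up to 4 called genes a list with the largest change, and the 5 genes most like each pattern; other genes given with values were chosen after these were seen. Alternatives were another normalization, other probe set rules, a span filter, robust eBayes, array weights, a replicate block, fewer pools and tissue covariates.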

Additional observations from a re-analysis of the deposited data

How the results depend on the processing

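On the high fat diet the genotype comparison called 1 member; with array weights it called 3 (Rnase2a, Mcpt4 and Cma1) and with tissue medians as covariates 0, and with single pools left out 0 to 1. Averaged over diets it called 1, with array weights 2 (Rnase2a and Mcpt4) and with covariates 0. The cause was not tested. The covariate fit left 5 residual degrees of freedom, as did the fit without the 3 pools of high muscle or liver median. On the high fat diet the covariate fit called 0 genes, and the fit without those pools called 440, Rnase2a among them. The array weights ran from 0.50 to 9.50, the estimate stopped before convergence, and 5120 genes were called against 1077, and 4009 against 1368 averaged over diets. The other comparisons called 0 members under every alternative run. Rnase2a lay between -3.86 and -1.43 on the high fat diet and was called in 19 of 22 alternatives, and between -2.81 and -1.04 averaged over diets, called in 20 of 21. Of 1324 differences of the other members 3 were called, all with array weights, 1253 stayed within 1 SE and 99, none called, changed sign.

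Pools with the same number did not pair: the correlations of their deviations ran from -0.66 to 0.63 over 18 pairs, with 4 of 12 pools closest to their own number. With the pool number as a replicate block, 1 member (Rnase2a, limma adjusted p = 0.0343) was called on the high fat diet, and 542 genes against 1077; averaged over diets 1 member and 829 genes were called. The span filter kept 5 of the 10 members, and the fits of only the pools compared give no value for the interaction or the averages. Signal over background cannot be read from centred values, so a flat gene may be a dim one.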
